A study of Mus musculus with 27 samples.

Results

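Grp, Prss35, Kirrel3 and Ak1 are 4 mouse genes whose signal rose strongly as limb bud mesenchymal cells formed cartilage cells in culture, and whose part in cartilage is little described. They were selected on the size of those rises in these arrays, so their levels and differences below are a description and carry no test. A gene was followed through its probe sets, the groups of short DNA probes that read 1 transcript on an Affymetrix array, and a probe set was used if its annotation named that gene alone. Of 15964 genes named in this way 4 were followed. They had 4 probe sets among 36701, 1 for each gene, of which 3 lie on array type C (Grp, Prss35 and Kirrel3) and 1 on array type A (Ak1). All 4 passed the filter on low values, each through a group in which it was high.

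The source was the subridge region of mouse limb buds, whose cells were left to differentiate in culture. Total RNA of 9 samples was hybridised to array types A, B and C, giving 27 arrays in 3 groups of 3 samples. The first group is multipotential mesenchymal cells, whose titles give no day. The second is chondroprogenitors harvested at 1 day and the third chondroblasts harvested at 3 days, with replicate numbers 1, 3 and 4 in every group. The labels give no strain, age or added agent, name fibroblasts as the contaminating cells, state the same estimated purity for every group, and do not state if the samples are from different cultures or animals, so the spread between replicates may be technical. In such bulk RNA a change in the number of cells that hold a transcript and a change in the amount per cell cannot be told apart.

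Grp encodes gastrin-releasing peptide, a bombesin-like neuropeptide that is cut from a precursor, amidated at its end and released to act on the receptor Grpr, which signals through Gq proteins and phospholipase C. Prss35 encodes a secreted protein of the trypsin-like serine protease family, described in the mouse ovary, and Prss23 is its close relative. Kirrel3 encodes a cell surface adhesion protein with immunoglobulin domains, related to nephrin of the kidney filter and studied mostly at synapses and in the sorting of axons. Ak1 encodes the cytosolic adenylate kinase of muscle and brain, which turns ADP into ATP and AMP and back. Cartilage forms from mesenchyme that condenses, becomes chondroprogenitors and then lays down a matrix of collagens and proteoglycans.

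Promoter windows of 300 bases were taken from RefSeq (build GRCm38.p6), from 250 bases before to 50 after an annotated gene start, for the genes that had an entry. Prss35 had 1 window and Ak1 had 4, all on the plus strand, and Grp and Kirrel3 had none. Each window was searched on both strands for the letters AACAAT and ACAAAG (bound by Sox factors), TGTGGT (Runx factors), TATAAA (the TATA box) and GGGCGG (the GC box). The Prss35 window, its only one, and the first 2 of Ak1 are shown, since these are genes that had risen by day 1 and the windows hold different letters, which are in capitals.
Prss35, chr9:86743383-86743682: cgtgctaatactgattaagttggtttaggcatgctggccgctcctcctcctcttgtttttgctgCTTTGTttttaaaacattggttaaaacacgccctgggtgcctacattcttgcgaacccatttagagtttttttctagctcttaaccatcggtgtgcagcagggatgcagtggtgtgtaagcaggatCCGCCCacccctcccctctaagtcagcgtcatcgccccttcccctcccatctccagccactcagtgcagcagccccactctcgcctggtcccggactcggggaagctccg
Ak1 window 1, chr2:32621508-32621807: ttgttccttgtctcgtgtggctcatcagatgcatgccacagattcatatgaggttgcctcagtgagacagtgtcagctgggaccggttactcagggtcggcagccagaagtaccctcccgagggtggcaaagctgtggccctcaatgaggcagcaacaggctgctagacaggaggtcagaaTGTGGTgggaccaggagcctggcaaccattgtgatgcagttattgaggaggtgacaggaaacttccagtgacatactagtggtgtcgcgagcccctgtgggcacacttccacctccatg
Ak1 window 2, chr2:32625187-32625486: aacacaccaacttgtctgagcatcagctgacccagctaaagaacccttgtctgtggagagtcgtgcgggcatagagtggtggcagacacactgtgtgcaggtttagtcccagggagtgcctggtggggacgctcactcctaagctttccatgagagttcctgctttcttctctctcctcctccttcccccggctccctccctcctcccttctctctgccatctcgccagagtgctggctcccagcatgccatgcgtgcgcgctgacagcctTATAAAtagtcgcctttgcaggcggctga
In the Prss35 window the capitals mark ACAAAG, read on the other strand, at bases 65 to 70, and GGGCGG, also on the other strand, at bases 191 to 196. In the Ak1 windows they mark TGTGGT at bases 182 to 187 of the first and TATAAA at bases 272 to 277 of the second. This TATAAA lies after the annotated start, at position 22, and is given as a match of letters alone. The third Ak1 window held none of the letters searched, and the fourth, at chr2:32629250-32629549, held TGTGGT at bases 223 to 228. Such short matches are common. Among all 32851 windows of the same length, 18.7% held ACAAAG, 10.7% AACAAT, 16.8% TGTGGT, 13.6% TATAAA and 35.7% GGGCGG. The Prss35 window was 54.0% G and C and the Ak1 windows 55.7% to 57.7%, beside a median of 52.7% over all windows.

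The 4 genes rose along 3 time courses. Grp stayed low through day 1 and was high at day 3 alone, Prss35 was higher at each step, and Kirrel3 and Ak1 were high by day 1 and held much of that level at day 3. Signals are the authors' MAS5 signals, with each array rescaled to a trimmed mean of 500. A group mean below 200 is called below the filter. Differences are of log2(signal + 50) with limma's standard error and n = 3 samples a group; where 1 group is below the filter the size depends on the added 50, and no fold is given.

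**Figure D1:**
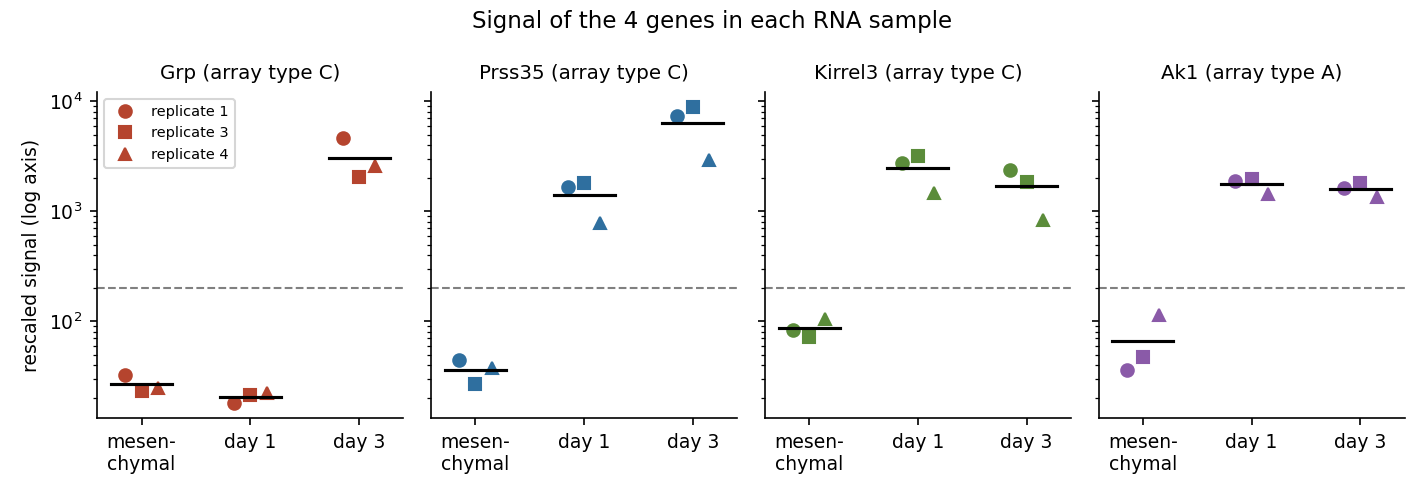
Rescaled signal (log axis) of Grp, Prss35, Kirrel3 and Ak1 in the 9 RNA samples, by group. Points are samples, shaped by replicate number, the short lines are group means and the dashed line is the filter at 200. All mesenchymal samples lie below the line, Grp crosses it at day 3 and the other 3 genes at day 1.

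Grp, the neuropeptide, had signals of 32.5, 23.1 and 24.7 in mesenchymal replicates 1, 3 and 4, and 18, 21.5 and 22.3 at day 1. At day 3 the signals were 4633, 2040 and 2576. All 3 day 3 samples thus stood far above all 6 earlier ones, which were all below the filter. The difference was 5.39 ± 0.48 from day 1 to day 3 and 5.27 ± 0.48 from mesenchymal cells to day 3. From mesenchymal cells to day 1 it was -0.12 ± 0.48, between 2 groups whose means of 26.8 and 20.6 are both below the filter. Grp alone of the 4 did not have its lowest day 3 value in replicate 4.

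Prss35, of the serine protease family, had signals of 44.7, 27.1 and 37.6 in mesenchymal cells, 1657, 1816 and 788.8 at day 1, and 7308, 8930 and 2941 at day 3. The 3 groups did not overlap, and each stood above the one before it. The difference was 4.01 ± 0.43 at day 1 against mesenchymal cells and 2.07 ± 0.43 at day 3 against day 1. The means of 6393 and 1421 made the second step 4.5-fold. Over both steps it was 6.08 ± 0.43. Its second step moved with single samples, to 1.71 without day 1 replicate 4 and to 2.55 without day 3 replicate 4.

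Kirrel3, the adhesion protein, had signals of 83.9, 71.7 and 106.1 in mesenchymal cells, 2731, 3196 and 1459 at day 1, and 2392, 1860 and 836.1 at day 3. Both later groups lay above all mesenchymal samples and overlapped each other. The difference at day 1 against mesenchymal cells was 4.13 ± 0.42 and at day 3 against mesenchymal cells 3.56 ± 0.42. Day 3 against day 1 gave -0.57 ± 0.42, a size near its own error, with means of 1696 and 2462. Leaving out day 3 replicate 4 brought this last value to -0.15, and leaving out day 1 replicate 4 to -0.90.

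Ak1, the adenylate kinase, had signals of 35.9, 47.3 and 115 in mesenchymal cells, 1877, 1963 and 1444 at day 1, and 1628, 1828 and 1346 at day 3. Here too both later groups overlapped each other and lay above all mesenchymal samples. The difference was 4.01 ± 0.26 at day 1 and 3.88 ± 0.26 at day 3, each against mesenchymal cells. Day 3 against day 1 gave -0.13 ± 0.26, smaller than its error, with means of 1601 and 1761. Ak1 and Kirrel3 thus had like time courses. After each gene's log2 values were centred on their own mean, the root mean square difference of the pair over the 9 samples was 0.41, while the other 5 pairs of the 4 genes gave 1.12 (Prss35 and Ak1) to 2.55 (Grp and Kirrel3).

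Against mesenchymal cells, 3 of the 4 genes at day 1 and 4 of 4 at day 3 had groups that did not overlap and stood higher, beside 14.4% and 16.6% of all 12214 genes tested. From day 1 to day 3 it was 2 of 4, beside 10.5%. By the stricter rule used for other genes below, limma called 4.55% higher and 1.36% lower in the first comparison and 8.67% higher and 4.8% lower in the second, at an adjusted p (Benjamini-Hochberg) below 0.05. From day 1 to day 3 it called 1.69% higher and 0.63% lower. Of all 23545 probe sets, in either direction, the step from mesenchymal cells to day 1 had 4.79% called, the step from day 1 to day 3 had 1.61%, and both steps together had 10.6%. As the genes were chosen for these rises, nothing is read from those counts.

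Replicate 4 was the low one of the later samples for Prss35 and Kirrel3. At day 3 its Prss35 signal was 36.2% of the mean of replicates 1 and 3 and its Kirrel3 signal 39.3%, and at day 1 these shares were 45.4% and 49.2%. Ak1 gave 77.9% at day 3 and 75.2% at day 1, and Grp at day 3 gave 77.2%. On array type C the control probe sets for 18S ribosomal RNA read 55755 in day 1 replicate 4, 32600 in day 3 replicate 4 and 52913 in mesenchymal replicate 1, against 3102 to 9332 in the other 6 samples. The part of this in the 4 genes' levels was not tested. Without those 3 samples, a choice made after seeing the data, the rises at day 1 against mesenchymal cells were 4.44 for Prss35, 4.45 for Kirrel3 and 3.96 for Ak1, and that of Grp at day 3 against day 1 was 5.49.

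The arrays were scanned in batches that hold more than 1 group in part. All day 1 and day 3 arrays of type C were scanned in 1 batch, so the values of day 3 against day 1 for Grp, Prss35 and Kirrel3 are within-batch values. In that batch mesenchymal replicate 3 alone stood for its group, and against it the difference at day 1 was 4.17 for Prss35 and 4.29 for Kirrel3. At day 3 it was 5.33 for Grp, 6.24 for Prss35 and 3.72 for Kirrel3. Ak1, on array type A, gave 4.4 in the batch that holds 1 day 1 and 2 mesenchymal samples, and -0.08 for day 3 against day 1 in the batch of 3 and 2 samples. No batch of array type A held both mesenchymal and day 3 samples. On array type B the day 3 arrays formed a batch of their own, so day 3 and batch cannot be told apart there. This covers the day 3 values below of genes read on type B, among them Sox9, Htra3, Masp1, Osr1, Col8a2 and Aspn. There the scan batch alternative fitted a correlation within batches, which cannot separate day 3 from batch.

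The labelled cell type was checked on cartilage markers. The summed signal of 10 cartilage marker genes was 4098 to 5062 in mesenchymal samples, 20273 to 24861 at day 1 and 61373 to 89090 at day 3, a sum led by Cnmd, which encodes chondromodulin. Of 9 tested, 5 were called higher at day 1 against mesenchymal cells, and Acan, Matn1, Comp and Hapln1 were not. At day 3 against day 1, 7 were called higher and 1 lower, and at day 3 against mesenchymal cells 9 were called higher. The lower one was Sox9, the leading transcription factor of chondrogenesis, with means of 2400, 6981 and 3774 in the 3 groups. It rose by 1.51 ± 0.19 at day 1 (limma adjusted p = 0.000263), a call that held in 18 of 18 alternatives. Its later calls held in fewer, 11 of 18 for -0.87 at day 3 against day 1 and 6 of 18 for 0.64 over both steps, with adjusted p of up to 0.175 and 0.148. The former was lost without day 1 replicate 1 or 4 or day 3 replicate 1 or 3, and the latter without day 1 replicate 1 or any 1 mesenchymal or day 3 sample. Both were also lost with no filter and with replicate number or scan batch in the fit. The latter was lost too with quantile normalization and without the 3 samples of high 18S signal. At day 3 against day 1 the calls of Hapln1 and Col9a3 held in 7 of 17 and 16 of 18 alternatives. Over both steps that of Hapln1 held in 14 of 17. Col2a1, the main collagen of cartilage and a defining marker, was below the filter in every group, with means of 126.3, 100.6 and 37. A low signal can also come from a probe set that reads poorly, so these values bound nothing about Col2a1 in the cells. Of 8 fibroblast genes, the labelled contaminant, 5 of the 6 tested were called higher at day 3 than in mesenchymal cells, with sums of 3074 to 3745, 5118 to 6688 and 17658 to 19831. The calls of Dcn and Lum were lost with scan batch in the fit, with limma adjusted p of 0.299 and 0.193. The part of fibroblasts in the 4 rises was not tested.

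Markers of cell types in which Grp, Kirrel3 and Ak1 are better known were followed as well. Neuroendocrine markers summed to 229.9 to 576.6, 249.2 to 424.9 and 265.5 to 497 in the 3 groups in order, and Chgb, Scg2 and Syp, 3 of the 4 measured, were below the filter throughout. Markers of neurons and Schwann cells summed to 4634 to 4806 in mesenchymal cells, 3596 to 4282 at day 1 and 3883 to 4246 at day 3. Of the 7 tested none was called higher in any comparison. At day 3 against mesenchymal cells 2 were called lower, Stmn2 (-1.01) and Sox10 (-1.15), calls that held in 7 and 14 of 18 alternatives. Snap25, Elavl4, Nefm and S100b were below the filter. Skeletal muscle, a tissue rich in Ak1, had marker sums of 2025 to 4059, 2478 to 3675 and 3246 to 5036, with 1 of 7 tested genes called higher at day 3 than in mesenchymal cells.

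At day 3 against mesenchymal cells 6 of 6 tested erythroid genes and 2 of 3 tested endothelial genes were called lower, of which 4 and 1 held in every alternative. The summed erythroid signal was 116571 to 254565 in mesenchymal cells, 9186 to 117114 at day 1 and 6607 to 19860 at day 3, and endothelial genes summed to 1291 to 1531, 259.7 to 396.7 and 189 to 379.9. Of 3 macrophage genes tested 1, Lyz2, which encodes lysozyme, rose by 2.92 ± 0.30 over both steps (limma adjusted p = 5.84e-05), from a mean of 28.1 to 542.6, while the 5 macrophage genes summed to 725.7 to 1511, 725.1 to 1129 and 1250 to 1501. No epithelial gene of 3 tested was called, and the list summed to 3534 to 4167, 2054 to 3228 and 2472 to 4017. The part of these cells in the 4 rises was not tested.

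Genes whose signal followed each of the 4 most closely were found by the smallest root mean square difference of centred log2 signal over the 9 samples, among 19404 probe sets naming 1 gene. The points share the same samples, so likeness is a description. Nearest to Grp were Eln (0.52), which encodes elastin, Ccn3 (0.67), a secreted matricellular protein, Matn1 (0.68), a cartilage matrilin, Col8a2 (0.69), a short-chain collagen, and Aspn (0.85), a small leucine-rich proteoglycan. Eln had signals of 176.1, 233.7 and 191.9 in mesenchymal cells, 251.4, 162.2 and 230.2 at day 1, and 5607, 6135 and 6549 at day 3, and another probe set of Eln differed by 2.44 at day 3 against day 1 where this one differed by 4.55. As with Grp, day 3 alone stood high. The day 3 minus day 1 differences of the other 4 were 3.76 to 4.14.

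Nearest to Prss35 were Acta2 (0.57), the actin of smooth muscle, Mgp (0.65), matrix Gla protein, Col9a3 (0.65), a chain of cartilage collagen IX, Lox (0.69), lysyl oxidase, which crosslinks collagen and elastin, and Cytl1 (0.72), a secreted protein of cartilage. Each differed by 2.76 to 4.57 at day 1 against mesenchymal cells and by 1.00 to 3.13 at day 3 against day 1, so both steps were upward for all 5. Second probe sets of 3 of them moved less in 1 or both steps. That of Col9a3 differed by 2.37 and then 1.02. A second one of Acta2 differed by -0.34 and then 0.98, and a second one of Cytl1 by 0.94 and then 1.46.

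Nearest to Kirrel3 were Osr1 (0.38), a zinc finger transcription factor of limb connective tissue, Irx1 (0.41), an Iroquois homeobox factor, Ak1 itself (0.41), Foxp2 (0.49), a forkhead factor, and Masp1 (0.51), a serine protease of the lectin pathway of complement. Nearest to Ak1 were Fibin (0.33), a secreted protein, Osr1 (0.39), Fgf12 (0.39), an intracellular FGF homologous factor, Kirrel3 (0.41) and Rdh10 (0.43), a retinol dehydrogenase of retinoic acid synthesis. Osr1, near to both, had signals of 141.5, 159.9 and 237.5 in mesenchymal cells, 3614, 3168 and 2604 at day 1, and 2069, 1977 and 1400 at day 3. Its day 3 samples lay between the other groups, without overlap. Masp1 is less sure, as its 2 other probe sets differed by 0.84 and 0.44 at day 1 where this one differed by 3.31.

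The names depend on the measure of likeness. Ranked by Pearson correlation over the 9 samples, 2 of the 5 genes were shared for Grp (Matn1 and Aspn), 1 for Prss35 (Cytl1), 1 for Kirrel3 (Foxp2) and 0 for Ak1.

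**Figure D2:**
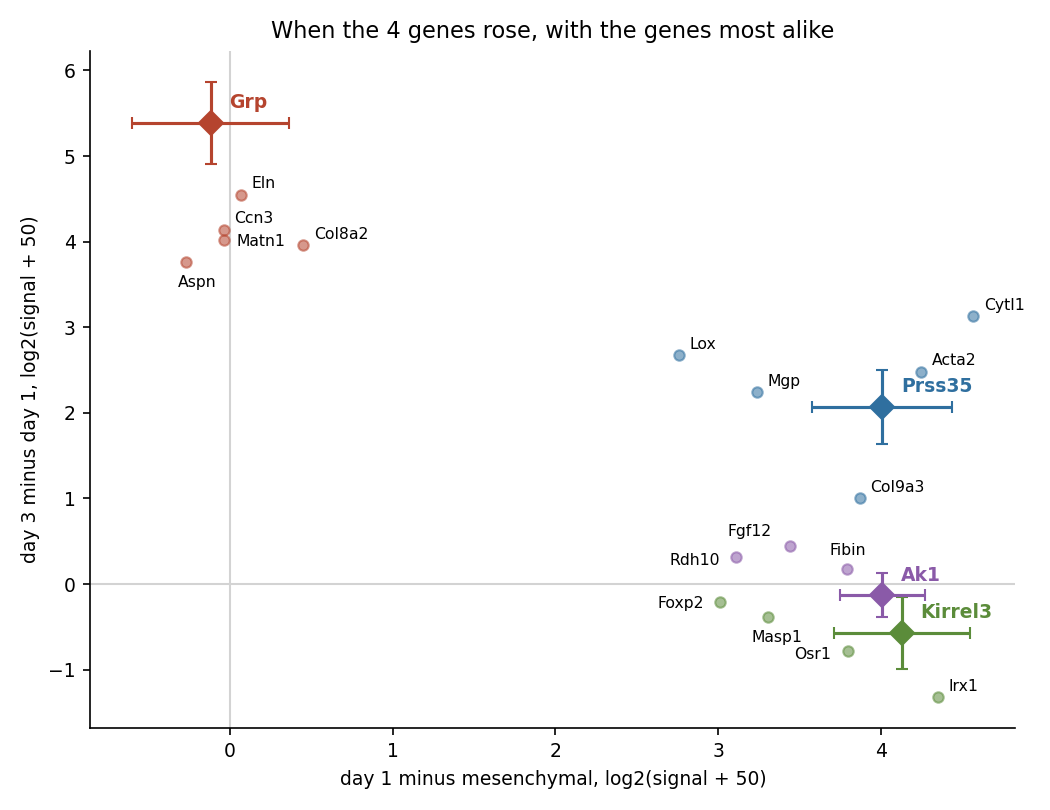
Difference of log2(signal + 50) at day 1 against mesenchymal cells (horizontal) and at day 3 against day 1 (vertical), each over 3 samples a group. Diamonds are the 4 genes with limma's standard errors as bars, and circles are the genes nearest to each in its colour (Osr1, near to both Kirrel3 and Ak1, in that of Kirrel3). Grp and its nearest genes lie at the upper left, Prss35 at the upper right, and Kirrel3 and Ak1 together at the lower right.

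Genes of the pathways and families of the 4 were followed in lists. Of 122 genes, 107 had a probe set of their own and 78 passed the filter in some group. At day 1 against mesenchymal cells limma called 5 of the 78 higher and 3 lower (10.3%, beside 5.91% of all genes), with a median difference of 0.19 beside -0.02 for all genes. At day 3 against day 1 it called 5 higher and 1 lower (7.69%, beside 2.32%), with medians of 0.10 and -0.05. At day 3 against mesenchymal cells it called 17 higher and 2 lower (24.4%, beside 13.5%), with medians of 0.18 and -0.05. The lists were chosen with earlier results of these data known, so nothing is read from an excess over all genes. The counts also rest on single samples. The 19 calls of the last comparison became 8 without day 3 replicate 1 and 12 without day 3 replicate 3. The 8 of the first became 3 without mesenchymal replicate 3, 4 without day 1 replicate 1 or day 3 replicate 1, and 5 without mesenchymal replicate 1 or 4, day 1 replicate 3 or day 3 replicate 3. The 6 of the second became 3 without day 1 replicate 3, and 2 without day 3 replicate 1 or 3. Leaving out together the 3 samples of high 18S signal gave 9, 7 and 19.

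**Figure D3:**
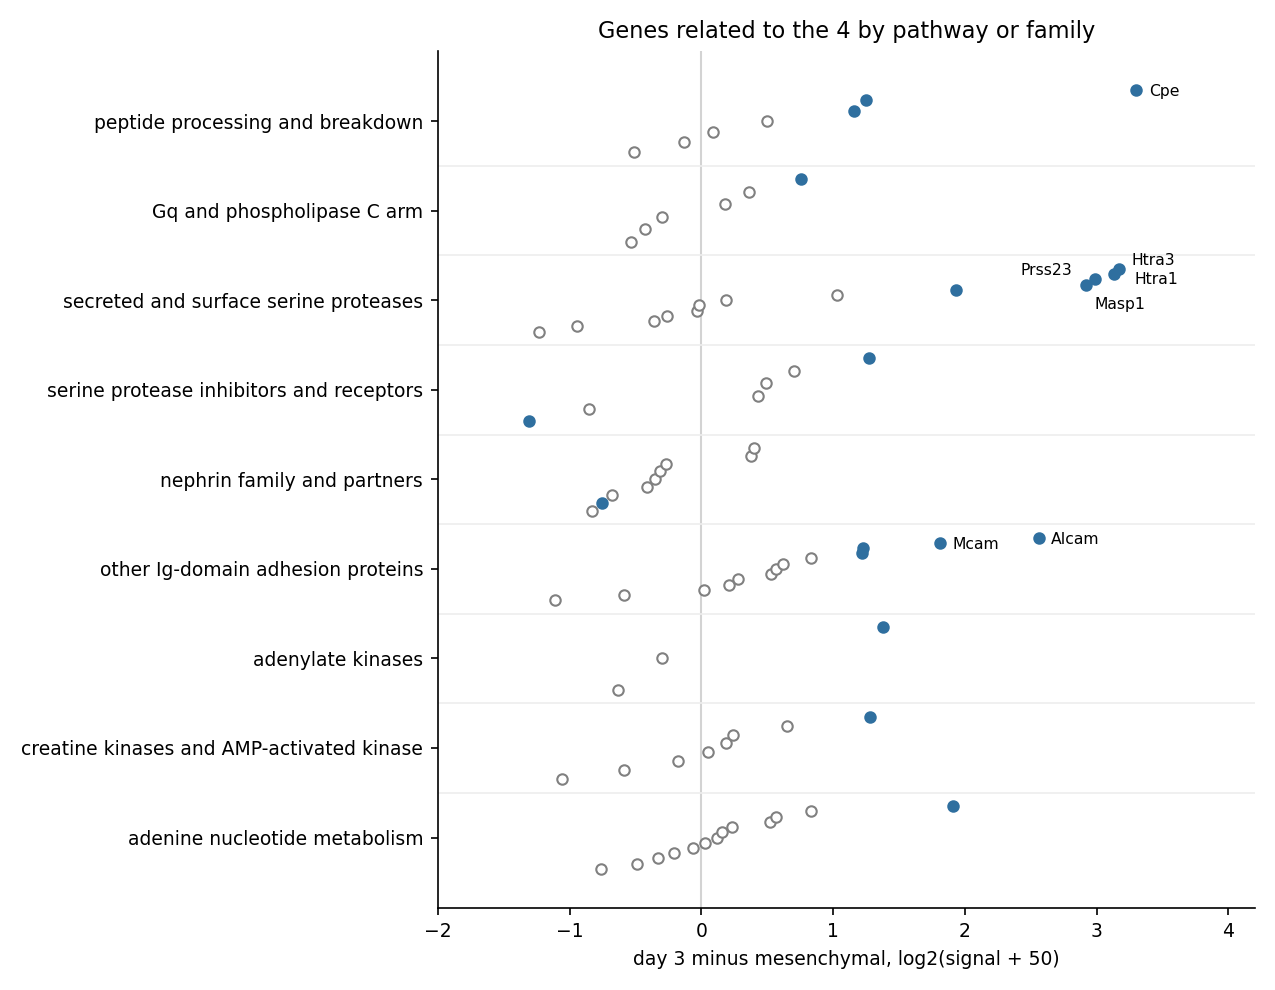
Difference of log2(signal + 50) at day 3 against mesenchymal cells for the 78 related genes tested, by list, with 1 circle per gene and genes spread vertically for legibility. Filled circles passed limma's adjusted p below 0.05, and names are given where it was below 0.001. Of the 78, 17 filled circles lie to the right of 0 and 2 to the left.

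No partner of Grp in the bombesin family was measured above the filter. The receptor Grpr had signals of 47.6, 18.1 and 11.2 in mesenchymal cells, 10.8, 8.0 and 19.1 at day 1, and 3.8, 9.1 and 15.4 at day 3, low in all 9 samples. The related peptide Nmb had group means of 135.1, 40.9 and 31.6, the receptor Nmbr 79.3, 29.3 and 45.5, and the receptor Brs3 29.1, 81 and 30.8. A low signal can also come from a probe set that reads poorly, so these values bound nothing about the receptors.

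Of the enzymes that process or break down peptides, 7 of 10 could be tested. At day 3 against mesenchymal cells 3 (Cpe, Mme and Pam) were called higher, beside 8.67% of all genes. Cpe, the carboxypeptidase that trims peptide hormone precursors, had signals of 468.1, 439.3 and 730.5 in mesenchymal cells, 4397, 3316 and 3307 at day 1, and 6404, 5436 and 5326 at day 3. Its groups stood in this order without overlap. It rose by 2.66 ± 0.20 at day 1 (limma adjusted p = 9.61e-06) and by 3.3 ± 0.20 over both steps (limma adjusted p = 8.29e-07). A second probe set of Cpe rose by 2.27 at day 1, while 2 others gave 0.47 and 0.11 and did not pass. Pam, which amidates peptides such as that of Grp, rose by 1.25 ± 0.28 at day 3 against mesenchymal cells (limma adjusted p = 0.0135), a call lost with scan batch in the fit and without mesenchymal replicate 3, day 3 replicate 1 or day 3 replicate 3, with an adjusted p of up to 0.478. Mme, neprilysin, which degrades peptides, rose by 1.16 ± 0.25 (limma adjusted p = 0.0108), a call lost with scan batch in the fit and without day 3 replicate 1, with an adjusted p of up to 0.201, and 1 of its 4 other probe sets also passed (1.37). Pcsk6, a proprotein convertase, rose by 1.14 ± 0.18 at day 1 (limma adjusted p = 0.00332), a call lost with scan batch in the fit (adjusted p 0.0734). It fell by 1.05 ± 0.18 on the log2 scale at day 3 against day 1 (limma adjusted p = 0.0129), a call lost without day 1 replicate 1 or 3 or day 3 replicate 1 or 3, with an adjusted p of up to 0.0829, so that day 3 and mesenchymal cells differed by 0.09.

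Of 6 tested genes of the Gq and phospholipase C arm, 1 was called, Gna11, which encodes a Gq-family alpha subunit, at 0.76 ± 0.22 over both steps (limma adjusted p = 0.0445). That call did not hold with the replicate number or scan batch in the fit, with no filter, or without mesenchymal replicate 1 or 3, day 1 replicate 1 or 3, or any 1 day 3 sample, with an adjusted p of up to 0.187. A second probe set of Gna11 gave 1.44 (limma adjusted p = 0.0102), and of Gnaq, its close relative, 1 probe set gave -0.30, not past, and another -1.56 (limma adjusted p = 0.0278).

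Among serine proteases other than Prss35, 13 of 21 could be tested. At day 3 against mesenchymal cells 5 were called higher, beside 8.67% of all genes, and none lower. The call of Plat held in 14 of 18 alternatives. It was lost with scan batch in the fit and without mesenchymal replicate 3, day 3 replicate 1 or day 3 replicate 3. Prss23, the close relative, had signals of 85.2, 75.4 and 68.4 in mesenchymal cells, 154.5, 238.2 and 203.7 at day 1, and 1119, 1158 and 664.4 at day 3. Like Prss35 it stood higher in each group than in the one before, without overlap. Its means of 76.3 in mesenchymal cells and 198.8 at day 1 are both below the filter, so that step is less sure. It rose by 2.03 ± 0.27 at day 3 against day 1 (limma adjusted p = 0.00233) and by 2.99 ± 0.27 over both steps (limma adjusted p = 1.96e-05), while its 0.97 ± 0.27 at day 1 did not pass (limma adjusted p = 0.069).

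The secreted proteases Htra1 and Htra3, known for cutting matrix proteins, were also higher at day 3. Htra1 rose by 3.13 ± 0.39 over both steps (limma adjusted p = 0.000253), from a mean of 133.7 to 1434, with 2.61 of it at day 3 against day 1. A second probe set of Htra1, already at 14182 in mesenchymal cells, gave 0.10, so the probe sets of this gene disagree. Htra3 rose by 3.17 ± 0.45 (limma adjusted p = 0.000314), from 150.5 to 1772, and a second probe set gave 0.79, not past the threshold. Masp1, named above as near to Kirrel3, rose by 3.31 ± 0.34 at day 1 against mesenchymal cells (limma adjusted p = 4.11e-05), while its 2 other probe sets did not pass. Of protease inhibitors and receptors, 6 of 11 were tested. Serpinf1, a secreted serpin without inhibitory action, rose by 1.27 ± 0.28 over both steps (limma adjusted p = 0.0111), a call lost without day 3 replicate 1, with an adjusted p of 0.0579, and its second probe set gave -1.32, not past the threshold. Serpinf2, the antiplasmin, was called lower by the same comparison, at -1.31 ± 0.35 (limma adjusted p = 0.0309), a call that held in 12 of 18 alternatives, with an adjusted p of up to 0.186, and was lost without any 1 mesenchymal sample or without day 3 replicate 1 or 3, and its second probe set gave 0.30.

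Of 9 tested genes of the nephrin family and its partners none was called higher in any comparison, and their median at day 3 against mesenchymal cells was -0.35. The adaptor Grb2 and the kinase Fyn were called lower at day 1 against mesenchymal cells, by limma differences of -0.80 and -1.01, calls that held in 7 and 4 of 18 alternatives. That of Fyn was lost without any 1 of the 9 samples, and that of Grb2 without any 1 of them other than mesenchymal replicate 4 and day 3 replicate 4. Kirrel, the paralog of Kirrel3, had signals of 1897, 2328 and 2231 in mesenchymal cells, 2931, 2853 and 2946 at day 1, and 2725, 3007 and 2670 at day 3. Day 1 samples all stood above mesenchymal ones, by a small step. The difference of 0.43 ± 0.16 at day 1 did not pass (limma adjusted p = 0.156), and a second probe set gave -0.11. The scaffold Tjp1, or ZO-1, which binds the tails of this family, gave 0.23 ± 0.34 and then -0.51 ± 0.34. Kirrel2 and Nphs1, nephrin itself, had no probe set naming them alone.

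Of 13 other adhesion proteins with immunoglobulin domains tested, 4 were called higher at day 3 than in mesenchymal cells and none lower. Of all genes 8.67% were called higher in that comparison. The call of Ncam1 was lost with scan batch in the fit and that of Boc without day 3 replicate 1. Alcam had signals of 267.9, 156.3 and 122.8 in mesenchymal cells, 421.9, 395.4 and 323.5 at day 1, and 1506, 1484 and 925.8 at day 3. The 3 groups did not overlap and stood in that order. It rose by 2.56 ± 0.27 over both steps (limma adjusted p = 6.91e-05), and its 3 other probe sets rose by 2.95 to 3.84. Mcam rose by 1.81 ± 0.23 (limma adjusted p = 0.000254), from a mean of 334 to 1336. At day 3 against day 1, where Kirrel3 gave -0.57, Alcam rose by 1.63 ± 0.27 (limma adjusted p = 0.00964), a call lost without day 3 replicate 1 or 3, with an adjusted p of up to 0.0742.

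Of 3 adenylate kinases tested other than Ak1, none was called at day 1 against mesenchymal cells, the step at which Ak1 stood higher. Ak3, the mitochondrial GTP:AMP kinase, rose by 1.38 ± 0.30 at day 3 against mesenchymal cells (limma adjusted p = 0.0111), a call lost with scan batch in the fit and without day 3 replicate 1, with an adjusted p of up to 0.113, and its other probe set gave -0.40. Ak4 and Ak7 gave -0.63 ± 0.50 and -0.30 ± 0.47 in that comparison, neither past the threshold, and Ak5 and Ak8 were below the filter. Ckb, the brain creatine kinase, which also buffers ATP, gave 0.05 ± 0.21, with means of 1116 and 1121. Of 8 creatine kinase and AMP-activated kinase genes 1 was called, and of 13 tested genes of adenine nucleotide metabolism 1 was called higher, in that comparison. Those calls, of Prkag1 and Nt5e, held in 10 of 18 and 13 of 17 alternatives.

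The nearest genes on the chromosome, 3 on each side in the RefSeq table, were taken for each of the 4, which gave 24. Of these, 21 had a probe set of their own and 17 could be tested. At day 1 against mesenchymal cells 1 was called higher, at day 3 against day 1 also 1, and at day 3 against mesenchymal cells 3, none lower. Of all genes 4.55%, 1.69% and 8.67% were called higher in these comparisons. The median difference in the last was 0.11, beside -0.05 for all genes, and nothing is read from these few genes. In that comparison the 14 that were not called lay between -0.90 (Ets1) and 1.83 (St6galnac6), and 5 were called without day 3 replicate 4. The call at day 3 against day 1 was lost without any 1 of day 1 replicates 1 and 3 and day 3 replicates 1 and 3, and rose to 2 without mesenchymal replicate 4. That at day 1 became 2 without day 1 replicate 4.

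Me1, next to Prss35, was the one neighbour called at day 1 against mesenchymal cells. It encodes cytosolic malic enzyme, which makes NADPH. Its signals were 48.5, 174.3 and 208.3 in mesenchymal cells, 697.6, 711.9 and 666.7 at day 1, and 1518, 1615 and 889 at day 3, so its groups, like those of Prss35, followed one another without overlap. It rose by 2.05 ± 0.34 at day 1 (limma adjusted p = 0.00383) and by 2.92 ± 0.34 over both steps (limma adjusted p = 0.00014). Its 0.86 ± 0.34 at day 3 against day 1 did not pass (limma adjusted p = 0.349). A second probe set gave 0.89 at day 1, not past the threshold, and 2.02 over both steps, past it. On its other side, Cyb5r4, a cytochrome b5 reductase, gave 0.63 and 0.57 in the same comparisons, neither past the threshold.

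Near Grp, Lman1, a cargo receptor for export from the endoplasmic reticulum, had signals of 947.3, 1150 and 1096 in mesenchymal cells, 1588, 1321 and 1339 at day 1, and 2362, 1864 and 2210 at day 3. It rose by 0.98 ± 0.16 over both steps (limma adjusted p = 0.0022). A second probe set rose by 1.10 (limma adjusted p = 0.00725) and the remaining one gave 0.20, not past the threshold. Near Ak1, Eng, which encodes endoglin, rose by 0.86 ± 0.16 at day 3 against day 1 (limma adjusted p = 0.0194), a call lost with the replicate number or scan batch in the fit and without any 1 of the 4 samples named above for that comparison, with an adjusted p of up to 0.119. Over both steps Eng rose by 0.73 ± 0.16 (limma adjusted p = 0.0114). That call was lost with scan batch in the fit and without day 3 replicate 3, with an adjusted p of up to 0.298. A second probe set of Eng gave 0.65 and 0.04 in these comparisons, neither past the threshold. No tested neighbour of Kirrel3 (Fli1, Ets1, St3gal4, Dcps and Tirap) was called in any comparison.

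**Figure D4:**
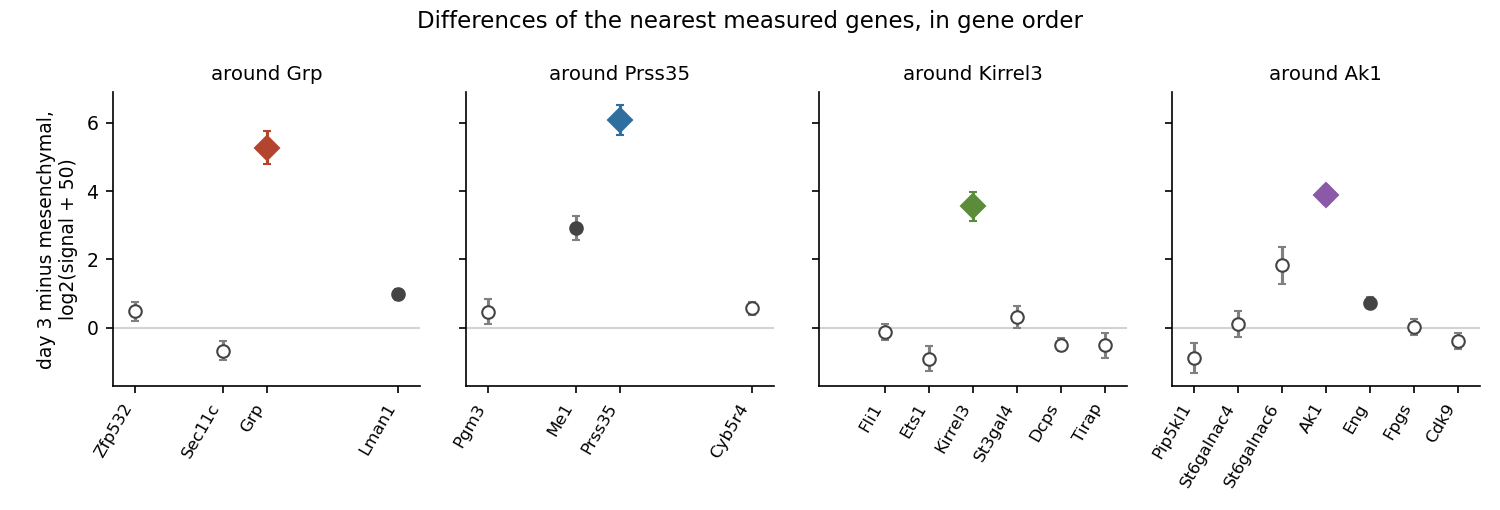
Difference of log2(signal + 50) at day 3 against mesenchymal cells for the 4 genes (diamonds) and their tested neighbours (circles) in gene order, with limma's standard errors as bars and gaps where a neighbour was not tested. Filled circles passed limma's adjusted p below 0.05. They are Lman1 near Grp, Me1 near Prss35 and Eng near Ak1, all lower on this axis than the gene they neighbour.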

How the data were processed

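Per the submitters' processing notes the authors made 1 MAS5 signal per probe set and array, deposited as an intensity on a linear scale (MAS5 version: not given in the sources used here). Deposited arrays had trimmed means of 1500.3 to 1500.9, so they had been scaled. All 27 were brought to a 2% trimmed mean of 500 before log2(signal + 50) was formed. Tests left out 66 control probe sets per array, and probe sets with a mean below 200 in every group, leaving 23545. These were fitted in R 4.3.3 with limma 3.58.1 (lmFit, eBayes with a trend), per array type over all 9 samples, and adjusted together (Benjamini-Hochberg, threshold 0.05). The number of arrays limits the precision. A gene was represented by its probe set on array type A before B before C, then by highest mean. Symbols came from the platform annotation, updated through a RefSeq table (GRCm38.p6); 29131 of 36701 probe sets named 1 gene. Beside the 4 genes and their neighbours, the text names up to 4 genes per list with the smallest adjusted p, fixed relatives of the 4, and 5 alike genes each. The genes and the lists were chosen with earlier results of these data known. Alternatives were other scalings, pseudocounts and filters, blocks for replicate and scan batch, and each sample left out.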

Additional observations from a re-analysis of the deposited data

How the results depend on the processing

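No difference of the 4 genes changed direction under the alternatives run. Of 192 such values 173 moved by less than the spread between replicates and 19 by more, 16 of them with the pseudocount. Some of the 173 could not move. Leaving out a sample of the group not compared leaves a difference as it was, and so does the replicate block. Scan batch as a block likewise cannot move day 3 against day 1 on array type C. The count of 173 is thus no measure of stability. With a pseudocount of 16, and of 200 where a second value follows, day 1 against mesenchymal cells gave -0.22 and -0.04 for Grp, 4.7 and 2.71 for Prss35, and 4.54 and 2.88 for Ak1; Grp at day 3 against day 1 gave 6.32 and 3.82; and day 3 against mesenchymal cells gave 6.1 and 3.78 for Grp, 6.8 and 4.66 for Prss35, and 4.41 and 2.76 for Ak1. Kirrel3 against mesenchymal cells gave 3.15 at day 1 and 2.62 at day 3 with 200. Quantile normalization gave -0.02 for Grp at day 1. Scan batch as a block gave 4.4 and 4.32 for Ak1 at day 1 and day 3 against mesenchymal cells, reduced all probe sets called from 1128 to 683 and from 2489 to 1143 in these comparisons, and the related genes called from 8 to 3 and from 19 to 10; the cause was not tested. Same-numbered samples of day 1 and day 3 deviated together in part: 9 of 9 correlations were above 0 (0.029 to 0.479) and 7 above 0.1, and on array types A and C 6 of 6 samples correlated best with their own number, but on B 3 of 6. With mesenchymal cells 0 of 18 were above 0.1, and the labels state no pairing. The replicate number as a block cannot move a difference here, since every group holds the same numbers, and can change standard errors and calls alone. It called 4 related genes at day 1 against mesenchymal cells and 0 neighbours at day 3 against day 1. All probe sets called were 911, 258 and 1998 in the 3 comparisons. No filter gave 3 related genes at day 1. Without the 3 samples of high 18S signal, an alternative chosen after seeing the data, 2 neighbours were called at day 1 against mesenchymal cells and 2 at day 3 against day 1.

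Leaving out 1 sample gave 555 to 1242, 167 to 441 and 1457 to 2656 probe sets called at day 1 against mesenchymal cells, day 3 against day 1 and day 3 against mesenchymal cells, 3 to 7, 2 to 7 and 8 to 23 related genes, and 1 to 2, 0 to 2 and 2 to 5 neighbours. Of 38 calls of related genes and neighbours, 14 held in every alternative and none changed sign. Signals below the filter limit the size of every difference from mesenchymal cells.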
